A study of Mus musculus with 28 samples.

Results

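Toll-like receptors, their adaptors and kinases, and the NF-kappaB subunits they act through were followed in tissue that grew into a porous implant, in mice with and without a mammary tumor. The genes were picked by symbol: any assay named for a Toll-like receptor (Tlr), Myd88, Irak, Traf, Ticam, Tirap, Nfkb, Rel, Ikbk, Chuk, Nod1, Nod2 or Ripk was taken, whatever its values. This gave 24 of the 648 assays of the panel, for 22 of its 585 gene symbols. They cover the receptors Tlr1 to Tlr7, Tlr9 and Tlr11 to Tlr13, the cytosolic sensors Nod1 and Nod2, the adaptors Myd88 and Tirap, the kinases Irak1 to Irak4 and Ripk2, and the NF-kappaB subunits Nfkb1 and Rela. Tlr1 had 2 assays of its own, and a further assay is annotated to both Tlr1 and Tlr6 and is called the shared Tlr1/Tlr6 assay here. No assay of the panel was named for a Traf, Ticam, Ikbk or Chuk gene.

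The mice were female BALB/c animals that all carried microporous polycaprolactone scaffolds, which the labels describe as filling with immune, stromal and epithelial cells. Tumor-bearing mice had been inoculated with 4T1-luc2-tdTomato cells, a mouse mammary carcinoma line that carries luciferase and a red fluorescent protein. Healthy mice were their tumor-free controls, although the label for the tumor cell line names the same line on their samples too. Scaffolds came from 3 tumor-bearing and 3 healthy mice at day 7 after inoculation, 8 and 8 at day 14, and 3 and 3 at day 21, each from a different mouse as the labels number them. Mice are called by these numbers, 1 to 28.

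Toll-like receptors recognise conserved parts of microbes and molecules released from damaged cells. Most of them recruit the adaptor MyD88, which assembles IRAK kinases and leads to the release of NF-kappaB, a transcription factor of inflammatory cytokines, chemokines and adhesion molecules. NOD1 and NOD2 sense fragments of bacterial cell wall in the cytosol and reach NF-kappaB through the kinase RIPK2. Around implants, this pathway is known for its part in the recruitment and activation of macrophages and neutrophils. RNA levels of these genes do not measure the activity of the pathway, much of which runs through changes in the proteins.

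None of the 24 assays passed the test between tumor-bearing and healthy mice at any day, at an adjusted p under 0.05 in limma, a linear model fitted over all assays. Averaged over days, 17 assays had differences whose 95% intervals lay within 1.5-fold either way, against 54.6% of all assays. Within 2-fold there were 23, against 78.7%. These bounds hold for the average, in which opposite differences at single days can cancel. At day 14, 14 intervals lay within 1.5-fold and 21 within 2-fold, and at day 21 the numbers were 7 and 15. In the same scaffolds, 9 of 9 assays of neutrophil markers rose at day 14, where 2.38% of all assays passed. At day 21 it was 5 of 10, where 1.22% of all assays passed. These counts depended on single mice and on panel. Leaving out each mouse gave 7 to 9 at day 14 and 1 to 4 at day 21, and 0 passed at day 14 within panels D and G alone. The closest to a difference over the mean of the 3 days was the shared Tlr1/Tlr6 assay, at 1.18-fold in tumor-bearing over healthy mice (95% interval 1.04 to 1.33, adjusted p = 0.278). The 2 assays of Tlr1 alone had 1.1-fold and 0.935-fold, and that of Tlr6 had 1.09-fold.

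Values are log2 relative quantities, so that 1 unit is a doubling and a value of 0 equals the mean of the reference genes. The receptors spanned the whole range. Over all mice, Tlr13, which senses bacterial ribosomal RNA in mouse endosomes, had the highest median at 0.38, and the endotoxin receptor gene Tlr4 had -0.09. The shared Tlr1/Tlr6 assay had -0.48, and Tlr7, a receptor for single-stranded RNA, had -1.0. Tlr2, which pairs with TLR1 or TLR6 to recognise bacterial lipopeptides, had -2.05, and Tlr3, a receptor for double-stranded RNA, had -2.96. Lower medians were found for Tlr6 (-3.78), for the DNA receptor gene Tlr9 (-3.97) and for the flagellin receptor gene Tlr5 (-4.78). The lowest were those of Tlr11 at -7.36 and Tlr12 at -11.32, receptors for profilin of protozoan parasites in the mouse. Tlr12 stood at 0.000392 of the reference level, and Tlr13 at 1.3 times that level.

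The signaling genes lay between these extremes. The median was -0.98 for Nfkb1, which encodes the p105 precursor of the p50 subunit, and -1.87 for Rela, the p65 subunit. It was -1.22 for Myd88 and -3.35 for Tirap, the bridging adaptor of TLR2 and TLR4. Among the kinases, Irak4, the first of the cascade, had -1.85 and Irak1 had -2.11. Irak2 had -2.46, Irak3, which encodes the inhibitory family member IRAK-M, had -2.64, and Ripk2 had -2.90. Nod1 had a median of -3.46 and Nod2 one of -5.42. The Tlr1 assays had medians of -2.05 (assay 1) and -4.16 (assay 2), far apart for a single gene. The amplification efficiency of the assays was not given, and with such a gap between assays of the same gene the order of genes by level is approximate.

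**Figure D1:**
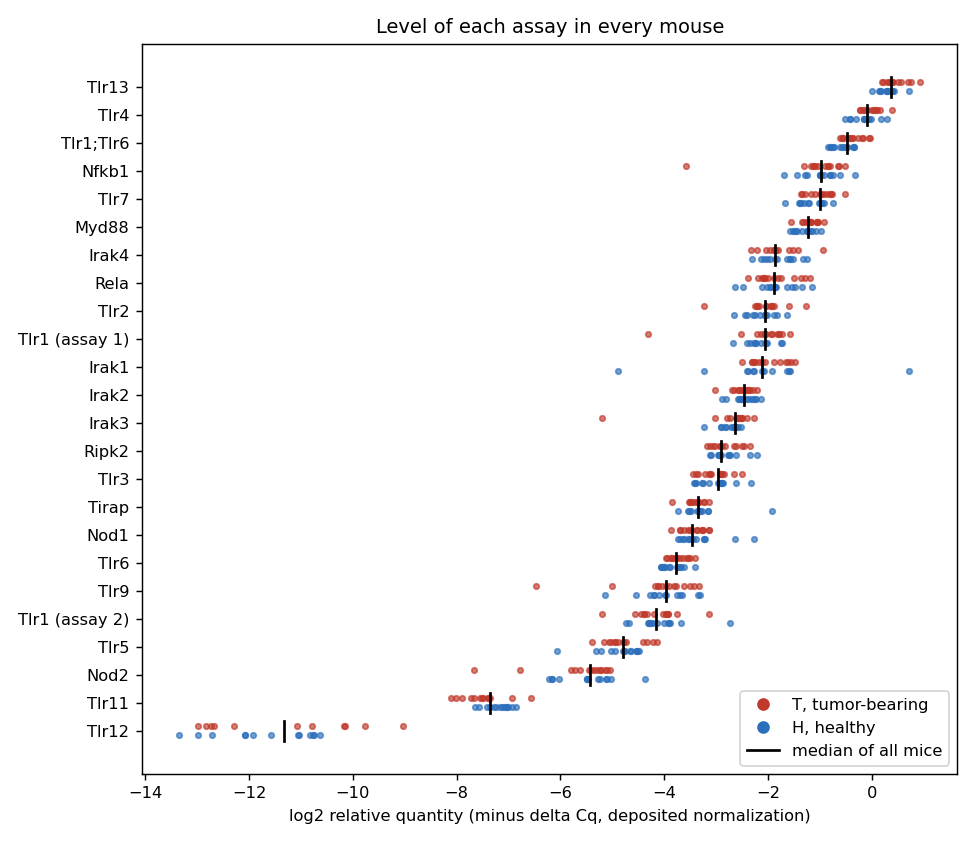
Level of each assay in every mouse as log2 relative quantity (x axis), with assays from highest to lowest median (y axis), tumor-bearing mice in red above healthy mice in blue and the median of all mice as a black bar. Medians run from 0.38 for Tlr13 to -11.32 for Tlr12, and tumor-bearing and healthy mice overlap in each assay when all days are pooled.

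The plot of levels in every mouse also shows how evenly the genes were measured. The median standard deviation within groups was 0.34 for the 24 assays, against 0.45 for the 571 assays of the panel for which it could be taken. Myd88 and Irak2 (0.14 each), Tlr6 and the shared Tlr1/Tlr6 assay (0.18 each) and Tlr4 (0.19) varied least between mice of a group. Tlr12 (1.07), Irak1 (0.77), Tlr9 (0.71), Nod2 (0.67) and Nfkb1 (0.62) varied most. Of 672 reactions of these assays, 19 gave no value, and 13 assays had a value in all 28 mice. The losses were concentrated: healthy mouse 13 and tumor-bearing mouse 21, which had the fewest measured assays of the whole panel (475 and 489), each lacked 5.

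Each assay is identified by its symbol, its RefSeq transcript, its amplicon length and its assay identifier. The identifiers are Mm00446095_m1 and Mm01208874_m1 for Tlr1, called assay 1 and assay 2, and Mm00441868_s1 for the shared assay. The DNA around the start sites of the receptors is of interest because some of these genes are themselves described as NF-kappaB targets. RefSeq start sites on build GRCm38.p6 gave windows from 250 bases before to 50 bases after the start for 18 of the 22 genes, 24 windows in all. No window was listed for Tlr4, Tlr7, Ripk2 or Nfkb1. Each was searched on both strands for a kappaB motif, spelled GGGANNTTCC or GGGGNNTTCC, where N is any base. The motif was present in windows of 2 genes, Tlr2 and Tlr3, and in 959 of 32851 windows of all genes (2.92%). Both are printed 5′ to 3′ on the strand of the gene, with the motif in capitals, since they are the only members in which these letters were found.
Tlr2, chr3:83841559-83841858, minus strand: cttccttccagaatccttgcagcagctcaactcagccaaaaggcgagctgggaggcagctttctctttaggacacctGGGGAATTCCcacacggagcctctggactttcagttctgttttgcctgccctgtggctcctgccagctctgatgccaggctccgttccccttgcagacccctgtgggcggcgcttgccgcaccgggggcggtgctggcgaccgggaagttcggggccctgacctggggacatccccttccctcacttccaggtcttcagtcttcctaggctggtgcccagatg
Tlr3, chr8:45410331-45410630, minus strand: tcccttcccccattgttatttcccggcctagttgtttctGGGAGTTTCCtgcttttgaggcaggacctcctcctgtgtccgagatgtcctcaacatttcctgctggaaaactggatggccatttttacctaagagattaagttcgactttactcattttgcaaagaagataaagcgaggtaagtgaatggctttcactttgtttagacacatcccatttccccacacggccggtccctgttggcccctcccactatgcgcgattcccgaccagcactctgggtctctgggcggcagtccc
The motif began at base -173 from the start used for Tlr2 and at base -211 from that used for Tlr3. The annotated genes reach further out than these starts, to chr3:83841824 for Tlr2 and chr8:45411075 for Tlr3. Both motifs thus lie within the annotated gene spans. Its presence is a match of letters and says nothing of binding in these scaffolds.

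At day 14, the comparison with most mice, 0 of the 24 assays passed the threshold in limma, against 2.38% of all 588 assays tested. The unadjusted p was under 0.05 for 3 of them (Tlr4, Tlr11 and Myd88), against 10.5% of all assays. Differences were positive for 10 and negative for 14 assays, with a median of -0.04, against -0.08 over all assays. When raw cycles were centred on each mouse's median instead of the reference genes, the median of all assays shifted by 0.11 and 17 of the 24 differences were positive. In no assay did all measured tumor-bearing mice lie on 1 side of all healthy mice, which was the case for 0.68% of all assays.

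Among the receptors at day 14, Tlr4 ranged from -0.17 to 0.40 in tumor-bearing mice (median 0.02, 7 of 8 measured) and from -0.52 to 0.18 in healthy mice (median -0.15). The ranges overlapped, and the highest value belonged to tumor-bearing mouse 15. The difference was 0.24 ± 0.11 (± standard error of the limma estimate here and below), or 1.18-fold with an interval of 1.01 to 1.38 (adjusted p = 0.424). Tlr4 was higher in the tumor-bearing mouse in 3 of 3 pairs of mice of the same day that were run on the same physical panel. Tlr2 ranged from -2.21 to -1.27 in tumor-bearing mice (median -1.92) and from -2.66 to -1.89 in healthy mice (median -2.16), with 7 mice measured in each group. Its difference was 0.38 ± 0.19, or 1.30-fold (interval 0.994 to 1.71, adjusted p = 0.5), with 3 of 3 pairs higher.

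Tlr11 lay at the other end at day 14. It ranged from -8.11 to -6.57 in tumor-bearing mice (median -7.62) and from -7.65 to -6.85 in healthy mice (median -7.14). Tumor-bearing mouse 15 had the highest value of all, and the groups overlapped. The difference was -0.39 ± 0.18, or 0.763-fold (interval 0.587 to 0.99, adjusted p = 0.434), and the tumor-bearing mouse was lower in 4 of 4 pairs. Tlr11 was measured at a median raw cycle of 25.9, later than most of these genes.

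The adaptor gene Myd88 ranged from -1.56 to -1.05 in tumor-bearing mice at day 14 (median -1.20) and from -1.57 to -1.22 in healthy mice (median -1.45). The lowest tumor-bearing value was that of mouse 15 and the groups overlapped. Its difference was 0.18 ± 0.09 on the log2 scale (interval 0.01 to 0.36, adjusted p = 0.441), positive in 4 of 4 pairs. Tirap, the other adaptor, had -0.28 ± 0.19 (adjusted p = 0.648), with 2 of 3 pairs positive.

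**Figure D2:**
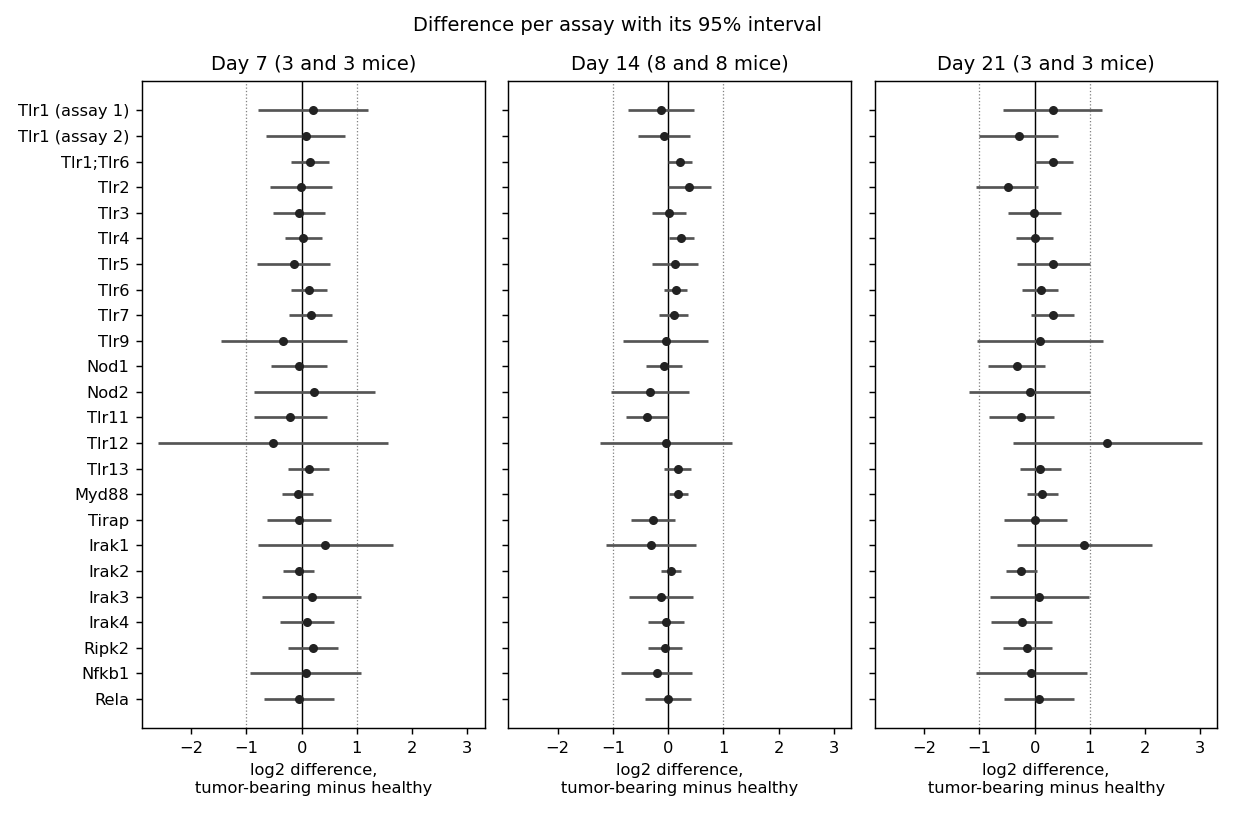
Log2 difference, tumor-bearing minus healthy (x axis), for the 24 assays (y axis) at day 7, day 14 and day 21, with points for the limma estimates and bars for their 95% intervals. Dotted lines mark 2-fold either way, and the narrowest intervals are those of day 14, where 21 of 24 lie between the lines.

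The plot of differences shows that precision depended on the number of mice. The median standard error of the 24 differences was 0.19 at day 14 and 0.28 at both day 7 and day 21. At day 14, 21 of the 24 intervals lay within 2-fold and 14 within 1.5-fold, against 64.3% and 37.8% of all assays. At day 7 the numbers were 17 and 11, and at day 21 they were 15 and 7. Tlr1 assay 1, Tlr9, Tlr12, Nod2, Irak1 and Nfkb1 had intervals that reached beyond 2-fold at both day 7 and day 21. A 2-fold difference in them was not excluded with 3 mice in each group. At day 7 only 2 healthy mice were measured for Tlr1 assay 1, and only 2 mice of each condition for Tlr12.

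At day 7, 0 of 24 assays passed in limma, 0 had an unadjusted p under 0.05, and the percentages over all 565 assays were 0% and 2.3%. Differences were positive for 13 and negative for 11 assays, and for 19 and 5 after centring on each mouse's median. Ripk2, the kinase below NOD1 and NOD2, had the smallest p. It had -2.89, -2.46 and -3.06 in tumor-bearing mice, against -3.11, -2.94 and -2.97 in healthy mice, and the groups overlapped. The difference was 0.20 ± 0.22 (adjusted p = 0.997), and 0.03 without tumor-bearing mouse 5. The shared Tlr1/Tlr6 assay had -0.60, -0.27 and -0.58 in tumor-bearing mice, against -0.73, -0.80 and -0.36 in healthy mice, again with overlap (0.15 ± 0.17, adjusted p = 0.997). Tlr7 had -0.91, -0.81 and -1.36 in tumor-bearing mice and -1.22, -0.95 and -1.40 in healthy mice, and its groups overlapped too (0.16 ± 0.19, adjusted p = 0.997). Leaving out 1 mouse at a time gave 0.03 to 0.33 for Ripk2, 0.04 to 0.29 for the shared assay and 0.06 to 0.32 for Tlr7. The 3 mice of each condition did not overlap in 2 assays, Tlr6 and Irak3, both higher in tumor-bearing mice, which is 2 of 24 against 9.2% of all assays. Tlr6 differed by 0.13 ± 0.16 and Irak3 by 0.18 ± 0.43 (adjusted p = 0.997 for both).

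At day 21, 0 of 24 assays passed in limma, against 1.22% of all 573 assays, and 1 had an unadjusted p under 0.05, against 9.08%. Differences were positive for 13 and negative for 11 assays, and for 16 and 8 after centring on each mouse's median. The groups did not overlap in 3 assays, the shared Tlr1/Tlr6 assay, Tlr7 and Irak2, against 18.3% of all assays.

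The shared Tlr1/Tlr6 assay had -0.06, -0.16 and -0.37 in tumor-bearing mice at day 21, against -0.48, -0.60 and -0.55 in healthy mice. All 3 tumor-bearing mice were above all 3 healthy mice, by a difference of 0.34 ± 0.17 (1.27-fold, interval 1 to 1.61, adjusted p = 0.542). Tlr7 had -1.35, -1.09 and -1.0 in tumor-bearing mice, against -1.67, -1.39 and -1.36 in healthy mice, a gap between the groups of only 0.01 at its narrowest. Its difference was 0.33 ± 0.19 (adjusted p = 0.677). Irak2, a kinase that sustains signaling after IRAK1, had -2.55, -2.57 and -2.48 in tumor-bearing mice, against -2.13, -2.43 and -2.32 in healthy mice. Here the tumor-bearing mice were the lower ones, by -0.24 ± 0.14 (0.849-fold, interval 0.698 to 1.03, adjusted p = 0.677), or -0.16 without healthy mouse 23.

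Tlr2 had -3.23, -2.20 and -1.94 in tumor-bearing mice at day 21, against -2.05, -1.82 and -2.01 in healthy mice. The difference of -0.49 ± 0.27 (adjusted p = 0.677) rested mostly on mouse 26, without which it was -0.11. The sign was the opposite of that at day 14, and the change in the effect from day 14 to day 21 was -0.88 ± 0.33 (interval -1.56 to -0.19, adjusted p = 0.645). It was -0.49 without mouse 26. Whether the difference between conditions changed from day to day was tested for 3 pairs of days, and 0 of 24 assays passed in limma in each, against 0% of all assays. Unadjusted p-values under 0.05 were found for 0 of 24 assays from day 7 to 14 (3.72% of all assays), for 1, Tlr2, from day 14 to 21 (5.43%) and for 0 from day 7 to 21 (3.93%).

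Irak1 and Tlr12 had the largest estimates at day 21 and also wide intervals. Irak1 had -2.31, -2.27 and -2.06 in tumor-bearing mice, against -4.88, -2.07 and -2.40 in healthy mice, so that healthy mouse 23 alone lay far from the other 5. The difference was 0.90 ± 0.59 (adjusted p = 0.728). Tlr12 had -9.77, -11.07 and -9.04 in tumor-bearing mice, against -11.04, -10.74 and -12.08 in healthy mice, with overlap (1.32 ± 0.82, adjusted p = 0.728).

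**Figure D3:**
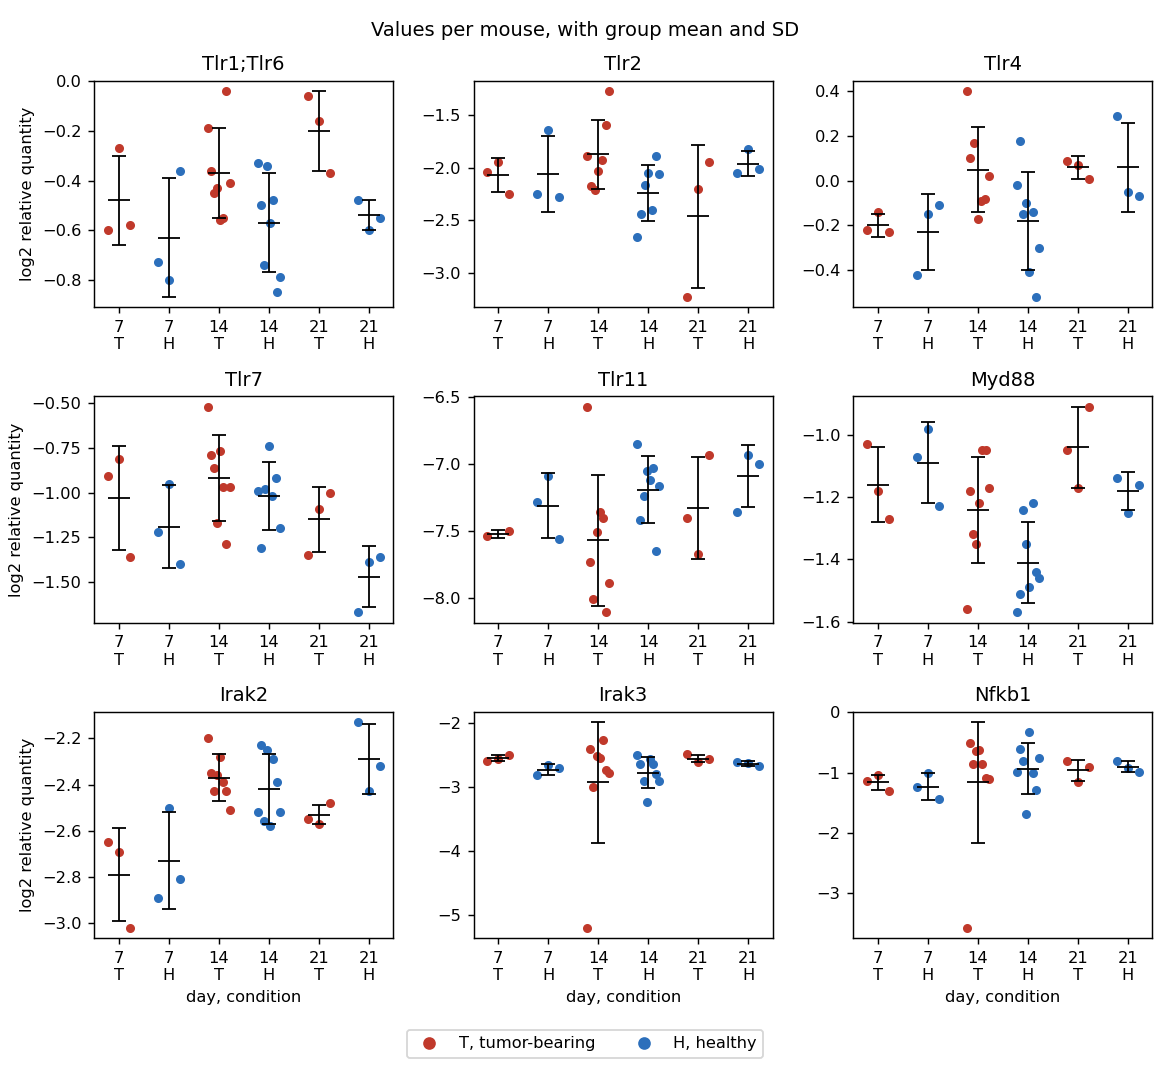
Log2 relative quantity (y axis) of 9 assays in each mouse, grouped by day and condition (x axis) with tumor-bearing mice (T, red) left of healthy mice (H, blue), and with the group mean and standard deviation in black. The conditions overlap at day 14 in each panel, while the shared Tlr1/Tlr6 assay, Tlr7 and Irak2 separate at day 21, and mouse 15 gives the lone low points of Irak3 (-5.20) and Nfkb1 (-3.57).

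Averaged over the 3 days with equal weight, 0 of 24 assays passed in limma, against 2.5% of all 559 assays, and 1 had an unadjusted p under 0.05, against 8.77%. The median difference was 0.01, against -0.05 over all assays, with 13 assays positive, and 18 positive after centring on each mouse's median. By role, the smallest p among the receptors was that of the shared Tlr1/Tlr6 assay. At day 14 it ranged from -0.56 to -0.04 in tumor-bearing mice (median -0.42) and from -0.85 to -0.33 in healthy mice (median -0.53), with overlap. Its mean difference was 0.23 ± 0.09, and the tumor-bearing mouse was higher in 8 of 10 same-panel pairs. Next came Tlr7 at 0.20 ± 0.10 (adjusted p = 0.552), higher in 8 of 9 pairs, and Tlr11 at -0.28 ± 0.15 (adjusted p = 0.625), lower in 7 of 9.

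Of the adaptors, Myd88 had 0.08 ± 0.07 over the 3 days (adjusted p = 0.745), an interval of 0.959 to 1.17-fold. Of the kinases, Irak2 had the smallest p at -0.08 ± 0.07 (0.855 to 1.05-fold, adjusted p = 0.767). Ripk2 had 0.00 ± 0.11 (0.851 to 1.18-fold). No difference was detected in the NF-kappaB subunits: Nfkb1 had -0.07 ± 0.25 (0.665 to 1.37-fold, adjusted p = 0.952) and Rela 0.01 ± 0.16 (0.801 to 1.26-fold, adjusted p = 0.994). At day 21 alone, the interval of Nfkb1 was 0.478 to 1.94-fold. Among the tested members only the interval of Tlr12, from 0.602 to 2.36-fold, reached beyond 2-fold.

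The same-panel pairs gave a second view of the differences that does not depend on panel. There were 10 such pairs, 3 at day 7, 4 at day 14 and 3 at day 21. Irak3 was the only one of the 13 members measured in all 10 pairs that had the same sign throughout. It was higher in the tumor-bearing mouse by 0.23, 0.10 and 0.22 at day 7, by 0.01, 0.37, 0.07 and 0.13 at day 14, and by 0.11, 0.12 and 0.02 at day 21. The median was 0.12, so the differences were small and some were near 0. Of the 319 assays of the panel with all 10 pairs, 1.57% had 1 sign throughout and 1.25% were higher in the tumor-bearing mouse in each pair. Tlr6 was higher in 9 of 10 pairs.

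The model value of Irak3 was far less even. At day 14, Irak3 ranged from -5.20 to -2.27 in tumor-bearing mice (median -2.64) and from -3.24 to -2.51 in healthy mice (median -2.72). The low value belonged to mouse 15, which has no same-panel partner of the same day in the healthy group. The limma difference at day 14 was -0.13 ± 0.28 (adjusted p = 0.907) and became 0.16 without mouse 15, a mouse left out after its values were seen. Over the 3 days it was 0.05 ± 0.22 (adjusted p = 0.969).

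**Figure D4:**
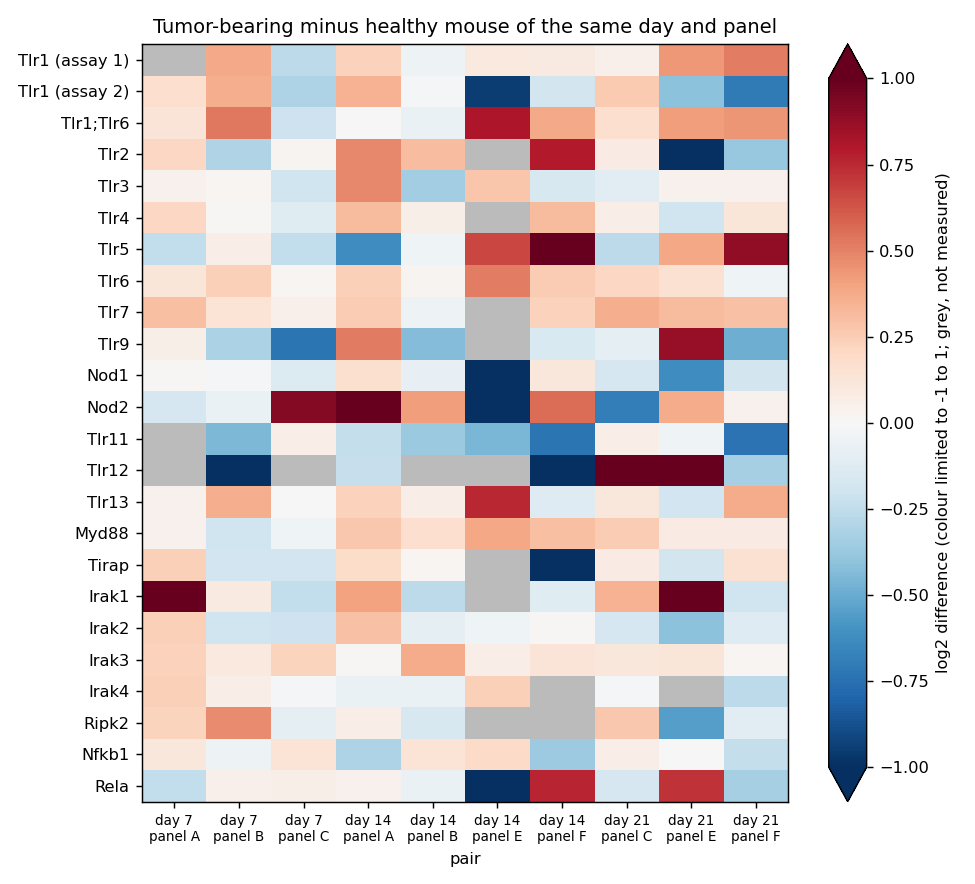
Log2 difference, tumor-bearing minus healthy mouse, for each assay (y axis) in the 10 pairs of the same day and panel (x axis), with red for higher and blue for lower in the tumor-bearing mouse and grey where a value was missing. The row of Irak3 is red in 10 of 10 pairs with a median of 0.12, while Irak1, Nod2, Tlr12 and Rela change sign between pairs.

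Among changes with time, Irak2 stood closest to the threshold in tumor-bearing mice. In them it had -2.65, -2.69 and -3.02 at day 7, from -2.51 to -2.20 at day 14, and -2.55, -2.57 and -2.48 at day 21. All tumor-bearing mice of day 14 and of day 21 lay above those of day 7. The day 14 minus day 7 difference was 0.42 ± 0.12 in tumor-bearing mice (adjusted p = 0.142 in limma) and 0.31 ± 0.12 in healthy mice (adjusted p = 0.285). The day 21 minus day 7 difference was 0.27 ± 0.14 in tumor-bearing mice (adjusted p = 0.567) and 0.45 ± 0.14 in healthy mice (adjusted p = 0.21). The 24 assays gave 0 calls in each of the 3 time comparisons of tumor-bearing mice, against 0.175% of all assays from day 7 to 14, 0% from day 14 to 21 and 0.529% from day 7 to 21. Unadjusted p-values under 0.05 were found for 1, 2 and 0 of them, against 8.58%, 10.3% and 8.82% of all assays. The same 24 gave 0 calls in healthy mice, against 0%, 0.346% and 0% of all assays, and 4, 3 and 1 unadjusted p-values under 0.05, against 12.9%, 16.1% and 10%.

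In healthy mice, Myd88 had -1.07, -0.98 and -1.23 at day 7 and a median of -1.45 at day 14, a difference of -0.31 ± 0.12 (adjusted p = 0.285). Irak4 differed by 0.51 ± 0.21 over the same interval (adjusted p = 0.334 in limma). Healthy mice 7 to 10 of day 14 were on panel D, which held no mouse of another day. Their Irak4 values were -1.57, -1.33, -1.58 and -1.24, against -1.52, -1.82 and -2.13 in healthy mice 11, 12 and 13 on other panels. Their Irak1 values were 0.72, -1.60, -1.63 and -1.58, against -2.28, -1.92 and -2.12 in healthy mice 11, 12 and 14. In these mice, panel and day cannot be told apart. Tlr7 at day 21 lay below all measured healthy mice of day 14, at -0.42 ± 0.16 (adjusted p = 0.189), and was the only member whose groups did not overlap in that comparison, against 6.06% of all assays. Irak1 had -1.56 ± 0.52 from day 14 to day 21 (adjusted p = 0.126), which was -0.67 without healthy mouse 23 and -1.22 without healthy mouse 7. In tumor-bearing mice, Tlr12 differed by 2.01 ± 0.73 (adjusted p = 0.285) and Tlr2 by -0.60 ± 0.24 (adjusted p = 0.295) between day 14 and day 21, and Tlr2 by -0.22 without mouse 26. Tlr12 was measured in only 6 of the 8 tumor-bearing mice of day 14.

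Non-overlapping groups between days were counted for the other time comparisons as well. From day 7 to day 21 they were found in 3 members in tumor-bearing mice (Tlr4, Tirap and Irak2, all higher at day 21), against 16.4% of all assays. In healthy mice there were 4 (Tlr4, Irak2, Irak4 and Nfkb1, all higher at day 21), against 26.8%. From day 7 to day 14 there was 1 in tumor-bearing mice (Irak2, against 4.2%) and 0 in healthy mice (against 4.37%). From day 14 to day 21 there was 0 in tumor-bearing mice (against 5.15%). None of these shares was above that of the whole panel.

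The assays that read Tlr1 and Tlr6 could be set against each other, because a difference in one should appear in another if both follow the same RNA. Deviations from the group mean were compared over mice for 6 relations, with permutation tests of 100000 resamples. The shared Tlr1/Tlr6 assay followed Tlr6, with Pearson's r = 0.67 (permutation p = 5e-05, adjusted 0.0003) and Spearman's rho = 0.64 (permutation p = 0.00041, adjusted 0.00246) over 28 mice. The r was 0.70 without the 2 mice farthest from the median and 0.65 with panel means removed. No relation was detected between the 2 Tlr1 assays (r = -0.04, permutation p = 0.856, rho = 0.22, permutation p = 0.27, over 26 mice), and r was 0.32 without mice 10 and 15. Nor was one detected between the shared assay and Tlr1 assay 1 (r = -0.16, permutation p = 0.469) or assay 2 (r = -0.08, permutation p = 0.693). Between conditions over the mean of 3 days, the shared assay differed by 0.23 ± 0.09 and Tlr6 by 0.12 ± 0.08. Tlr1 assay 1 differed by 0.14 ± 0.24 and assay 2 by -0.10 ± 0.18, the opposite sign. At day 21 the Tlr1 assays had 0.33 ± 0.43 and -0.29 ± 0.35, against 0.34 ± 0.17 for the shared assay and 0.11 ± 0.16 for Tlr6. The values of 1 mouse share its reference genes, which adds a common part to each pair of assays.

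Partners of the pathway behaved likewise. In a list of co-receptors, adaptors and downstream kinases with 21 genes measured on 23 assays, 0 rose and 0 fell in limma at each of the 3 days and over their mean, with median differences of 0.05, 0.00, 0.03 and -0.04. The smallest p-values over the 3 days were those of Cd180, a receptor related to TLR4 on immune cells (0.17 ± 0.09, adjusted p = 0.619), and Bcl10, an adaptor of antigen receptor signaling to NF-kappaB (0.10 ± 0.07, adjusted p = 0.709). Receptors and ligands of the IL-1 and TNF families, which also lead to NF-kappaB, were measured for 18 genes, and again 0 rose and 0 fell at each day and over the mean. Tnf, the founding cytokine of its family, had -0.37 ± 0.27 (adjusted p = 0.709), and its receptor gene Tnfrsf1b had 0.11 ± 0.08 (adjusted p = 0.719).

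Of NF-kappaB target genes, 29 were measured on up to 38 assays. At day 14, 1 assay fell and 0 rose, that of F3, the tissue factor that starts coagulation (-0.86 ± 0.21, adjusted p = 0.0285). F3 kept its direction at day 14 but passed under only 7 of 12 other settings, and in 12 of 16 fits that left out 1 mouse. It did not pass with the panel as a fixed block (adjusted p = 0.152) or in panels D and G alone (adjusted p = 0.949). At the other days F3 was not called: it had 0.21 ± 0.30 at day 7 and 0.12 ± 0.30 at day 21. Over the mean it had -0.18 ± 0.16 (adjusted p = 0.787 in limma). As 0% of all assays passed the tests of a change in the difference between days, a fall limited to day 14 was not shown. Over the mean of the 3 days, 1 of 37 assays fell and 0 rose. It was an assay of Ccl5, which attracts T cells and monocytes (-0.71 ± 0.16, adjusted p = 0.0141), and the second Ccl5 assay had -0.55 (adjusted p = 0.186). The called Ccl5 assay passed under 11 of 11 other settings and in 27 of 28 fits that left out 1 mouse, the exception being healthy mouse 2 (adjusted p = 0.0551). At day 21, 0 rose and 0 fell, with a median difference of -0.47, against 0.00 over all assays. The smallest p-values were those of assays of Ccl5 (-1.09 ± 0.32, adjusted p = 0.109) and Il12b (-1.88 ± 0.64, adjusted p = 0.259). The neutrophil chemokine gene Cxcl2 had -1.86 ± 0.68 (adjusted p = 0.301). The median of the target genes was -0.01 at day 7 and -0.09 at day 14, against 0.03 and -0.08 over all assays.

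Cell type markers were read in the same model. Of the neutrophil markers, 0 of 9 assays passed the threshold at day 7 (7 had positive differences), 9 of 9 rose in tumor-bearing mice at day 14, 5 of 10 at day 21 and 8 of 9 over the mean, and 0 fell. Their median differences were 0.44, 2.17, 2.50 and 1.46. Of all assays, 0%, 2.38%, 1.22% and 2.5% passed in these comparisons. The counts depended on single mice: leaving out each in turn gave 7 to 9 at day 14, 1 to 4 at day 21 (1 without healthy mouse 23) and 2 to 9 over the mean (2 without healthy mouse 3). With the panel as a fixed block they were 7, 3 and 7, and within panels D and G alone 0 passed at day 14. Monocyte and macrophage markers had 0 of 6 assays past the threshold in each comparison, with medians of 0.19, 0.11, 0.43 and 0.26. Of 5 dendritic cell marker assays, 0 passed at day 7 and day 14, 1 fell at day 21 and 2 fell over the mean, with medians of -0.07, -0.38, -0.37 and -0.24. Over the mean these were Ccr7, the receptor that guides dendritic and T cells to lymph nodes (-0.81 ± 0.15, adjusted p = 0.00252), and Ccl22, a chemokine made by dendritic cells and macrophages (-0.69 ± 0.15, adjusted p = 0.00711). Ccr7 was also the call at day 21 (-1.18 ± 0.30, adjusted p = 0.0437), a count that fell to 0 without any 1 of the 6 mice of that day. T cell markers had 0 of 5 assays past the threshold in each comparison, with medians of -0.54, -0.72, -0.73 and -0.61. The values of dendritic and T cell markers stand beside those of Ccl5 and the other NF-kappaB targets, and their part in them was not tested. Tlr2 and Tlr4 are expressed by neutrophils and by monocytes and macrophages, and the part of cell composition in the values of these receptors was not tested. In whole scaffolds, a change in the number of cells of a type and a change in RNA per cell cannot be told apart. The immune content named in the labels was seen in macrophage markers measured in at least 26 of 28 mice, and the fibroblast-related gene Fn1 was measured in all 28. Krt8, the only epithelial marker on the panel from the list, was measured in 23, and no B cell marker of the list was measured.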

How the data were processed

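RNA of whole scaffolds was measured by RT-qPCR on the TaqMan OpenArray Mouse Inflammation Panel, per the labels' protocols, which also say that samples were staggered over the physical panels. The labels name 7 of them, called A to G here. Panel G holds only 4 tumor-bearing mice and panel D only 4 healthy mice, all of day 14. The cycle-calling software is not given in the sources used here.

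The deposited raw values are quantification cycles (Cq), and the deposited normalized values are linear ratios, 2 to the power of minus delta Cq, made by the authors. Set against the raw cycles, they differ by 1 constant per mouse, the mean Cq of its reference assays, which are not reported here. The authors' deposited table of fold changes equals the plain differences of group means for these assays (to 1.55e-06 on the log2 scale) and was not used in tests. Of 18144 reactions, 2244 had no Cq and were left missing.

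The log2 of the authors' ratios was fitted with limma 3.58.1 in R 4.3.3, with 1 mean per group over all 28 mice and the panel as a random block (duplicateCorrelation with statmod 1.5.0, correlation 0.0535). The filter kept assays with values in at least 50% of the mice of any group (609 assays), and a contrast used those with 2 or more values in each of its groups. All 24 assays passed in each contrast. P-values are two-sided and were adjusted by Benjamini-Hochberg over all assays of a contrast. Intervals are at 95% and come from the same fit. Precision was limited by how many mice each group held.

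Genes given by mouse are the 3 with the smallest p in each tumor-bearing minus healthy contrast, those with the smallest p of each role in the mean of 3 days, and, chosen after their values were seen, the other members described. The members, gene lists and tests were chosen with earlier results of these data known. Alternatives were other normalization, filters, treatment of missing and outlying reactions, panel terms, subsets and leaving out each mouse.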

Additional observations from a re-analysis of the deposited data

Results flagged for a closer look

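At day 14, the only groups large enough for the test (6 to 8 measured mice), a mouse stood apart from its group by Dixon's criterion in 7 of 48 sets of values, and chance gives about 1 in 20. Tumor-bearing mouse 15 accounts for 4 of them. Its Tlr1 assay 1 was at -4.32 (nearest mouse -2.14), Tlr9 at -6.46 (nearest -4.12), Irak3 at -5.20 (nearest -3.01) and Nfkb1 at -3.57 (nearest -1.11). In this mouse, 5 of 24 members lay more than 1.5 cycles from the group median, and 9.03% of all its assays did. Of the 28 mice, 23 had no such member.

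The other 3 were high values in healthy mice. Nod1 was at -2.26 in mouse 13 (nearest -3.22), Tirap at -1.92 in mouse 14 (nearest -3.15) and Irak1 at 0.72 in mouse 7 (nearest -1.58). Mice 13 and 14 had values for only 475 and 535 assays of the panel. Whether reaction quality moved these values was not tested.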

How the results depend on the processing

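No member passed in any of 319 combinations of contrast and setting, and the smallest adjusted p of a member among them was 0.0635. Of 778 values of named members under other settings, 13 had the opposite sign. Setting missing reactions to the largest Cq gave Tlr4 at day 14 -2.94, in healthy mice Irak1 1.81 (day 14 to 21) and -1.64 (day 7 to 14), Irak4 -1.85 (day 7 to 14) and Tlr7 3.02 (day 14 to 21), and in tumor-bearing mice Tlr2 2.96 (day 14 to 21). By construction this setting turns 1 lost reaction into a very low level. Nfkb1 over the 3 days became 0.01 with raw cycles centred on each mouse's median and 0.04 without reactions over 2 cycles from the group median, and it ran from -0.10 to 0.04 when each mouse was left out. Irak3 at day 14 became 0.14 with the panel as a fixed block, 0.14 without panels D and G, and 0.16 without reactions over 2 cycles from the group median, and it ran from -0.23 to 0.16 when each mouse was left out, the highest without tumor-bearing mouse 15. The 2-cycle limit was chosen after seeing the data.

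Calls over all assays ranged over the settings from 0 to 2 at day 7, 0 to 20 at day 14, 0 to 9 at day 21 and 4 to 15 over the mean, against 0, 14, 7 and 14 as reported. Leaving out each mouse in turn gave 10 to 15 at day 14, 1 to 7 at day 21 and 8 to 15 over the mean. Replicate numbers are not shared between groups, so mice were not paired by number, and the pairs reported were matched by day and panel. The fit of only the compared groups was not run for the mean of 3 days, and used no panel term for the day 7 to 21 comparisons within a condition. Day 7 and day 21 rest on 3 mice a group, and panels D and G with condition at day 14 cannot be told apart. The same holds for panels D and G with day in the time comparisons that use day 14.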
